A study of Mus musculus with 6 samples.

Results

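The ATF4 and CHOP transcription factor circuit is described here across 6 arrays of sorted mouse bone marrow cells, through 8 genes and all 15 probe sets annotated to them. These are 15 of the 45032 probe sets kept and 8 of the 18192 genes named on the array. The genes are the basic leucine zipper (bZIP) factors Ddit3 (CHOP), Atf3, Atf4, Atf5, Cebpb and Cebpg, with the pseudokinase Trib3 and the enzyme Chac1. They were chosen by name with their measured Rb-null against control differences in this comparison already known, so those differences are given as a description and are not tested here.

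The cells were sorted as positive for CD71 and Ter-119, a combination carried by erythroid precursors, and their RNA was hybridised to 1-colour Affymetrix arrays, 3 per group. The Rb-null mice were EpoR-GFPcre/+ with Rb fl/fl. The controls had the same EpoR-GFPcre/+ allele with Rb fl/+, so both groups carry at least 1 floxed Rb allele and Cre at 1 copy of the erythropoietin receptor locus, which drives it in cells that express that receptor. The series title sets the comparison in the question of how Rb ties the end of cell division to mitochondria in red cell formation. The labels give no age, and nothing in them says that arrays of a group come from separate animals, so the spread between arrays may be technical.

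The integrated stress response begins when a stress kinase phosphorylates the initiation factor eIF2 alpha, which slows most translation while the mRNA of ATF4 is translated better. ATF4 then switches on genes of amino acid supply and a further layer of regulators that includes Ddit3, Atf3, Atf5, Trib3 and Chac1, often at composite sites bound together with a C/EBP partner. In erythroid precursors the kinase best known for starting this response is HRI, encoded by Eif2ak1, which senses heme and couples globin synthesis to heme supply.

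The deposited values are intensities on a linear scale. Medians per array ran from 23.3 to 31.2. The number of arrays and the differences between replicate numbers both limit precision. Control and Rb-null array 3 differed from the rest in the mean of the control probe sets for 18S ribosomal RNA, which was 1231 and 542 there and 32.6 to 66.2 elsewhere. Rb1, the floxed gene, gave signal on all arrays, reading 2760.2, 2152 and 1379 in controls and 4045, 3669.9 and 2897 in Rb-null. The positions of its probes relative to the floxed part are not given in the sources used here, and the signal therefore does not check the labels. Epor, whose locus carries Cre, varied within both groups, with 2221, 266 and 609 in controls and 248, 2228 and 558 in Rb-null. Of 10 listed erythroid markers 8 were named on the array, and 7 of these were past the brightness filter. The exception was Hba-a1, at no more than 27.0, while Alas2 and Slc4a1 read 8760.3 to 10602. Whether probe sets with several symbols, or those left out, read Hba-a1 was not tested. The low value is therefore not taken as the level of that gene. Markers of other cells were also present, and none was at 0 on every array. All 10 granulocyte markers passed the filter, with sums of 35162 to 52302 in controls and 26189 to 52641 in Rb-null. All 10 macrophage markers passed (3488 to 6814 and 2292 to 5051), as did all 7 B cell markers (427 to 777 and 253 to 462). Of T and NK cell markers 3 of 6 passed (257 to 374 and 213 to 339), and of megakaryocyte markers 3 of 5 (298 to 531 and 293 to 353). The log2 fold change was negative for all 10 granulocyte markers (median -0.45), 9 of 10 macrophage markers (-0.52), 6 of 7 B cell, 2 of 3 T and NK cell and 3 of 3 megakaryocyte markers, and for 2 of 7 erythroid markers (median 0.05). Beyond the granulocyte covariate below, the part of these cells in the results was not tested. In such bulk samples, fewer cells of a type and less RNA per cell cannot be told apart.

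The promoters of Ddit3, Atf3 and Chac1 are shown because ATF4 is known to act on these genes through the C/EBP and ATF response element, and because Ddit3 had a large fold change while Atf3 and Chac1 had the smallest of the 8 genes. Each window covers the 250 bases before the gene's start in RefSeq, build GRCm38.p6, at chr10:127290543-127290792 on the plus strand for Ddit3, chr1:191183334-191183583 on the minus strand for Atf3 and chr2:119350992-119351241 on the plus strand for Chac1. Capitals mark a match to TGATGNAA, the core of that element, on either strand. The Ddit3 window has none, and bases further upstream were not searched, so an element there would not be seen.
Ddit3: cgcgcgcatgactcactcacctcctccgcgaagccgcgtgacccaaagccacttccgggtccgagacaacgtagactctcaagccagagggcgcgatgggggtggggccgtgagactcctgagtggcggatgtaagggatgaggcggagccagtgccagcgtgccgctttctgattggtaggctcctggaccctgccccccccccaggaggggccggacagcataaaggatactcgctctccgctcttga
Atf3: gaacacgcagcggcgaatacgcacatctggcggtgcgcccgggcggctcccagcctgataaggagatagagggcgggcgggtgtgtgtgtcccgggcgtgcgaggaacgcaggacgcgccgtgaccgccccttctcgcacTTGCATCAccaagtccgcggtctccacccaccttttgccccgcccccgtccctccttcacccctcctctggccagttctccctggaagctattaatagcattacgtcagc
Chac1: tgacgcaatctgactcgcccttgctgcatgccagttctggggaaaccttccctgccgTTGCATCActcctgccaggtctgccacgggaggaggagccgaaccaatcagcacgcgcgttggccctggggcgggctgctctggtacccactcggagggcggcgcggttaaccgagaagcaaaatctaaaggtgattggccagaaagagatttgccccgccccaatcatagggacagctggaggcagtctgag

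All 8 genes had a promoter window in the RefSeq table, 9 windows in all because Atf5 has 2, and motifs were searched on both strands in windows that also take in the 50 bases after the start. TGATGNAA was found in 3 of the 9 windows and in 3.97% of all 32851 windows of the same length. In Atf3 the match began 110 bases before the start and in Chac1 193 bases before it, both reading TGATGCAA on the opposite strand. In Trib3 the match, TGATGTAA, began 15 bases after the start. The 30-base stretches around the matches are compared here, at chr1:191183425-191183454 for Atf3, chr2:119351038-119351067 for Chac1 and chr2:152344028-152344057 for Trib3, each on the strand of its gene.
Atf3: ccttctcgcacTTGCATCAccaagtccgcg
Chac1: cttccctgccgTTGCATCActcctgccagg
Trib3: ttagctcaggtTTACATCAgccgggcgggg

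No member window held an exact match to the cyclic AMP response element TGACGTCA (in 1.79% of all windows) or the E2F core TTTNNCGC (5.17%). Nor did any hold one to the ER stress element as searched, CCAAT and CCACG with 9 bases between them (0.119%). The Ddit3 window holds cgtgccgctttctgattgg, whose opposite strand reads CCAAT, 9 bases and then GCACG in place of CCACG. Near matches were not counted. A match is a run of letters and not a measured site. No match says only that these letters are not in these windows. None of the 4 motifs overlapped another in the member windows, since only TGATGNAA was found.

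Across the circuit, signal was higher in Rb-null than in control cells without overlap between groups on at least 1 probe set of Ddit3, Trib3, Cebpg, Atf5 and Atf4. By the probe set with the highest mean, 4 of the 8 genes were higher without overlap, where 5.13% of all genes were. Atf4 overlapped on that probe set. Since the members were chosen with this contrast known, nothing is read from this count. Both Cebpb probe sets were higher within each replicate number with overlapping groups, and Atf3 and Chac1 had fold changes near 1. The fold change was 4.44 for Ddit3 and 1.04 for Chac1, both known as targets of ATF4. These folds are the difference of quantile-normalized log2(value + 16) values, Rb-null minus control, so they understate changes of dim probe sets. The standard error (SE) comes from limma's fit of the 27019 probe sets that passed a brightness filter at the 40th percentile of the mean, an intensity of about 18.9. Of the 15 member probe sets 14 passed this filter. The third Atf4 probe set, 1439258_at, did not, and read at most 15.0 on any array.

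**Figure D1:**
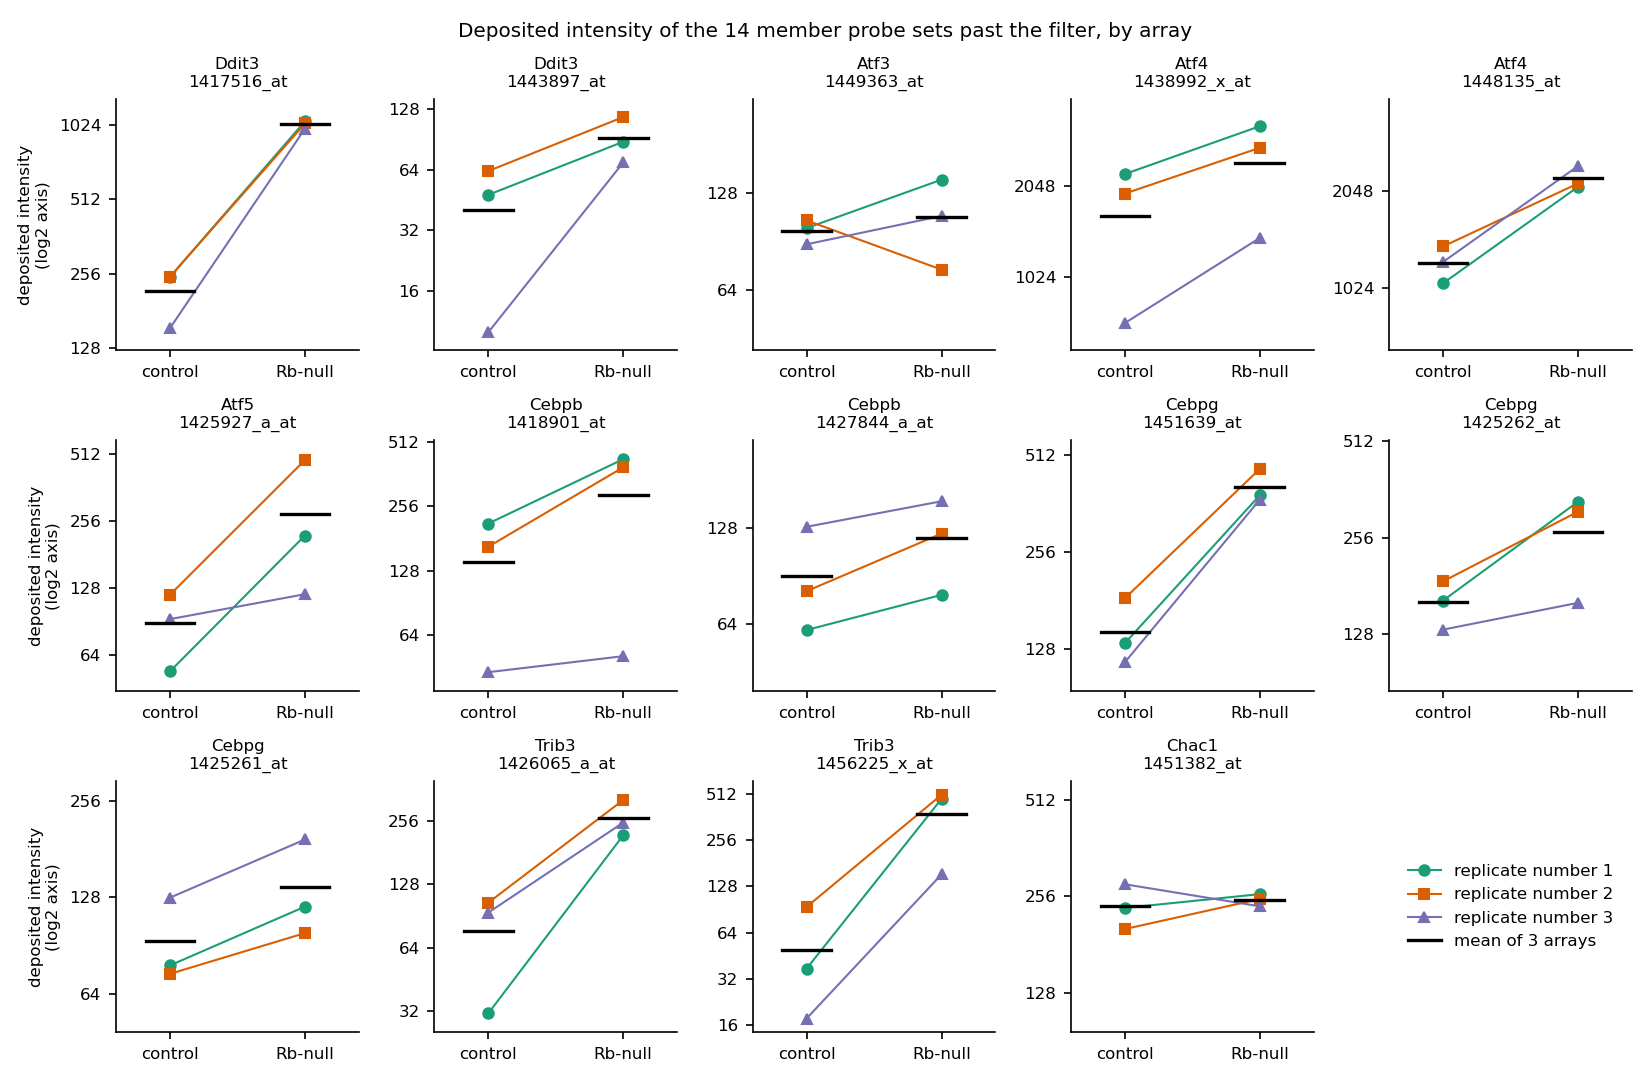
Deposited intensity (log2 axis) of each of the 14 member probe sets past the filter, control on the left and Rb-null on the right, with 1 point per array, lines joining arrays of the same replicate number and black bars at the group means. The bright Ddit3 probe set reads 155 to 249 in controls and 989 to 1059 in Rb-null, while Chac1 stays between 202 and 279 on all 6 arrays.

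Ddit3 encodes CHOP, a bZIP factor that pairs with C/EBP proteins and is known for driving cell death and recovery of translation under prolonged stress. Its bright probe set, 1417516_at, read 248.8, 249.1 and 154.5 in control replicates 1, 2 and 3, and 1059, 1038 and 989 in the Rb-null replicates in the same order, which holds for all values below. The groups did not overlap, and the 3 Rb-null arrays lay closer together than the controls. The mean went from 217 ± 54.5 (SD, n = 3) in the control group to 1028 ± 35.9 (SD, n = 3) in the Rb-null group. The log2 fold change was 2.15 (SE 0.26), with differences of 1.99, 1.95 and 2.51 within replicate numbers 1, 2 and 3. The dim probe set, 1443897_at, read 47.9, 63.0 and 9.91 in controls and 88.1, 117 and 69.5 in Rb-null, again without overlap. Control array 3 was the lowest on both. The dim probe set had a log2 fold change of 1.08 (SE 0.38), and 0.68 without control replicate 3. With the granulocyte marker level as a covariate, an alternative chosen after seeing the data, the bright probe set had 2.10 (SE 0.30). In RefSeq the gene lies at chr10:127290793-127296291 and shares 77 bases with Mbd6 and 71 bases with Mars1. Which of these bases a probe set reads was not tested.

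Trib3, a pseudokinase that is induced by ATF4 and CHOP and holds both in check, had the largest fold of any member probe set. Its probe set with the higher mean, 1426065_a_at, read 31.3, 104.8 and 94.0 in controls and 219, 322 and 251.5 in Rb-null. The other, 1456225_x_at, read 37.3, 93.9 and 17.7 against 474, 504 and 153. On both, every Rb-null array was above every control array. The log2 fold changes were 1.69 (SE 0.42) and 2.59 (SE 0.48). The probe sets differed in which control was lowest, array 1 for the first and array 3 for the second, and the differences within numbers ran from 1.31 to 2.35 and from 2.15 to 3.23. The second ran from 1.88 with an offset of 64 to 3.02 with an offset of 1 in place of 16.

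Atf4, the factor at the head of the circuit, is controlled largely at translation, which arrays do not measure. Its probe set 1448135_at read 1058, 1379 and 1233 in controls and 2113, 2165 and 2452.5 in Rb-null, without overlap. The other bright probe set, 1438992_x_at, read 2244, 1933 and 721 in controls and 3230.2, 2741 and 1379 in Rb-null. Here both arrays numbered 3 were the lowest of their group, and Rb-null array 3 lay below control arrays 1 and 2, so the groups overlapped. Within each replicate number the Rb-null array was nonetheless higher on both probe sets, by 0.56 to 0.95 and by 0.41 to 0.84. With the replicate number as a block the SE was 0.17 on each, in a fit that called 0 probe sets. Without the block, the log2 fold changes were 0.82 (SE 0.27) and 0.60 (SE 0.46). The second was 0.92 without control replicate 1, 0.16 without control replicate 3, 0.32 without Rb-null replicate 1 and 0.90 without Rb-null replicate 3.

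Atf5, a related factor that is also translated under eIF2 alpha phosphorylation and is tied to the mitochondrial stress response, read 54.2, 119.8 and 93.0 in controls and 221, 483 and 120.4 in Rb-null. Rb-null array 3 stood only just above the highest control, and control array 1 was the lowest. The log2 fold change was 1.31 (SE 0.44), with differences of 1.80, 1.80 and 0.33 within numbers 1, 2 and 3. The gene lies at chr7:44812256-44816658 and shares 571 bases with Nup62 and 289 with Il4i1b.

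Cebpg, a C/EBP protein without an activation domain that pairs with ATF4, had 3 probe sets, all higher within every number. The brightest by mean, 1451639_at, read 133, 184 and 116 in controls and 385, 464 and 373 in Rb-null, means of 144 ± 35.2 (SD, n = 3) and 407 ± 49.9 (SD, n = 3). Its groups were far apart, with a log2 fold change of 1.40 (SE 0.26). The second, 1425262_at, read 163, 187 and 132 against 331, 309 and 160.5, and the third, 1425261_at, 78.7, 74.1 and 127.9 against 119.9, 99.2 and 194. The arrays numbered 3 were lowest on the second and highest on the third, and deposited values overlapped on both, though on the normalized scale the second did not overlap. Their log2 fold changes were 0.62 (SE 0.28) and 0.49 (SE 0.40). With 1 array left out the third ran from 0.14 (without Rb-null replicate 3) to 0.80 (without control replicate 3).

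Cebpb, a C/EBP protein that pairs with CHOP and is also abundant in myeloid cells, differed more between replicate numbers than between groups. Its probe set 1418901_at read 213, 166 and 42.6 in controls and 427, 391 and 50.7 in Rb-null. The other, 1427844_a_at, read 61.5, 81.2 and 128.8 against 79.1, 122.7 and 155. The first was lowest and the second highest on the arrays numbered 3, so these 2 probe sets of 1 gene differed in how they ordered the arrays (correlation -0.69 over 6 arrays). Both were higher in Rb-null within numbers 1, 2 and 3, by 0.91, 1.10 and 0.18 and by 0.37, 0.48 and 0.25. With the replicate number as a block the SE was 0.22 and 0.15, in a fit that called 0 probe sets. Without the block, the log2 fold changes were 0.73 (SE 0.70) and 0.37 (SE 0.41), with overlapping groups. The first was 1.11 without control replicate 1, 0.21 without control replicate 3, 0.28 without Rb-null replicate 1, 0.39 without Rb-null replicate 2 and 1.53 without Rb-null replicate 3. The second was 0.11 without control replicate 1, 0.72 without control replicate 3, 0.62 without Rb-null replicate 1 and 0.08 without Rb-null replicate 3. The summed granulocyte markers were 35162, 52302 and 39482 in controls and 26189, 52641 and 31913 in Rb-null. With the mean normalized log2 value of these markers, not their sum, as a covariate, the log2 fold changes were 0.76 and 0.45.

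The values of Atf3 and Chac1 lay closest to 0. Atf3, an ATF factor that many stresses and mitogens induce, read 99.7, 105 and 88.8 in controls and 141, 74.0 and 109 in Rb-null. The Rb-null arrays lay on both sides of the controls, and the log2 fold change was 0.10 (SE 0.30, 95% interval -0.60 to 0.80). Chac1, an enzyme that degrades glutathione, read 235, 202 and 279 in controls and 260.0, 251 and 238 in Rb-null, with a log2 fold change of 0.05 (SE 0.29, 95% interval -0.61 to 0.72). In these intensities array 3 was the lowest of the Rb-null arrays and the highest of the controls. On the normalized scale, which gives the fold change, array 3 was the highest of each group. The upper bounds leave room for differences of up to 0.80 and 0.72. Each changed sign when 1 of 2 arrays was left out, Atf3 without Rb-null replicate 1 (-0.06) or 3 (-0.02) and Chac1 without control replicate 2 (-0.13) or Rb-null replicate 3 (-0.03), and both were negative with the granulocyte marker covariate (-0.09 and -0.03). Both promoter windows hold the TGATGNAA core shown above.

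**Figure D2:**
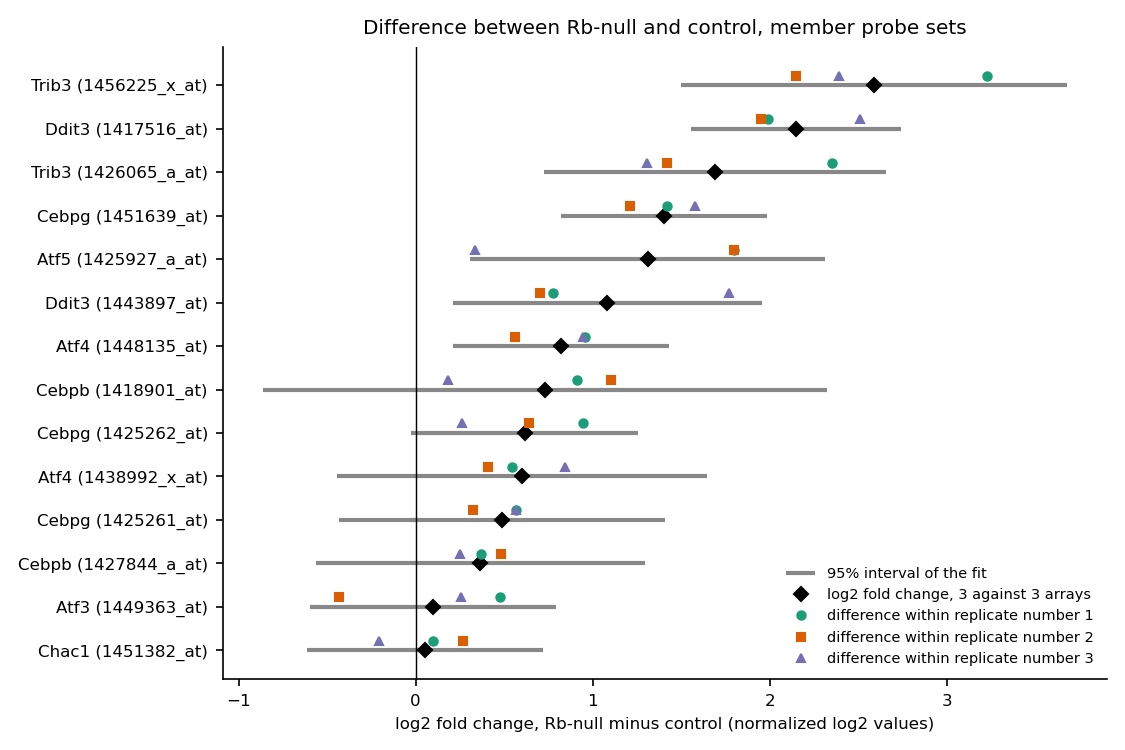
Log2 fold change (Rb-null minus control, normalized log2 values) of the 14 member probe sets past the filter, with its 95% interval from limma and the difference within each replicate number. Both Trib3 probe sets, the bright Ddit3 probe set and the brightest Cebpg probe set lie from 1.40 to 2.59, the dim Ddit3 probe set is at 1.08, and Atf3 and Chac1 lie at 0.10 and 0.05.

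Ordered by the probe set with the highest mean, the 8 genes ran from Ddit3 (2.15) through Trib3 (1.69), Cebpg (1.40), Atf5 (1.31), Cebpb (0.73), Atf4 (0.60) and Atf3 (0.10) to Chac1 (0.05). Each neighbour in this order lay within the other's 95% interval. Of the 14 probe sets tested, 8 had normalized values that did not overlap between groups, all higher in Rb-null, where 5.73% of all probe sets were higher and 3.91% lower without overlap. Within all 3 numbers 12 were higher and 0 lower, where 20.3% of all probe sets were higher and 22% lower. Since the members were chosen with this contrast known, nothing is read from these counts. Limma's moderated test (2-sided, Benjamini-Hochberg over 27019 probe sets) called 0 probe sets at an adjusted p under 0.05 (0% of those tested), members included. The lowest adjusted p was 0.265, and 1119 had an unadjusted p under 0.05. With the replicate number as a block it again called 0 (lowest adjusted p = 0.0999, 4458 at an unadjusted p under 0.05). With a variance trend and robust moderation added to the block it called 938, of which 605 were higher in Rb-null (2.24% of those tested).

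**Figure D3:**
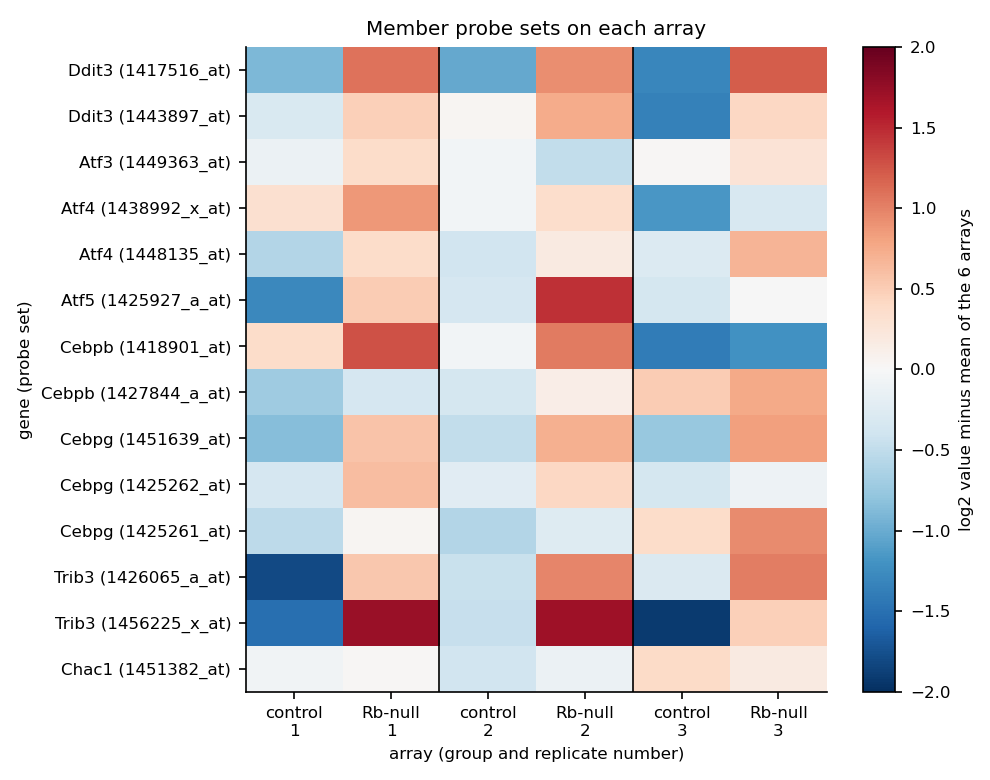
Normalized log2 value of each member probe set on each array, minus its mean over the 6 arrays, with arrays side by side by replicate number (red above the mean, blue below). The bright Ddit3 probe set, both Trib3 probe sets and the brightest Cebpg probe set turn from blue to red within every number, while Cebpb 1418901_at is blue on both arrays numbered 3.

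Over the 6 arrays, the brightest Cebpg probe set followed Ddit3 most closely of the members, with a Pearson correlation of 0.98. The other Cebpg probe sets had 0.79 and 0.44. Trib3 had 0.81 and 0.90, Atf5 0.70, and Atf4 0.92 for 1448135_at and 0.52 for 1438992_x_at. Cebpb had 0.37 and 0.30, Atf3 0.22 and Chac1 0.05. These correlations describe 6 points that share the group difference and the array effects. Among the other 13224 genes tested, those most like Ddit3 were Tmpo (0.995), Cnst (0.994), Spast (0.989), Dipk2a (0.989) and Rest (0.989). Tmpo, a protein of the nuclear envelope, read 1835, 2112 and 1607 in controls and 3955, 4837 and 4118 in Rb-null.

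Genes that ATF4 is known to switch on were split. Of 30 listed targets other than the members, 22 were tested, 0 passed limma's adjusted test in either direction (0% of all 13232 genes), and 16 were positive. The median log2 fold change was 0.43, against -0.04 over all genes. At an unadjusted p under 0.05, 6 were higher (2.43% of all genes were) and 0 lower (1.43%), and 8 were higher and 0 lower without overlap, against 5.13% and 4.78% of all genes. Within all 3 numbers 10 were higher and 1 lower, against 18.4% and 24.1% of all genes. This list and those below were chosen with earlier results of these data known, so their counts and medians are a description. The 6 at an unadjusted p under 0.05, named after their values were seen, were Ddit4, Slc38a2, Mthfd2, Eif4ebp1, Slc3a2 and Slc7a5. Ddit4, an inhibitor of mTOR signalling, read 75.4, 47.6 and 18.5 in controls and 377, 261 and 398 in Rb-null, a log2 fold change of 2.60 (SE 0.38). The amino acid transporter subunits Slc3a2 and Slc7a5, which work as a pair, had 1.34 (SE 0.34) and 1.10 (SE 0.44), and the transporter Slc38a2 had 1.73 (SE 0.49). Mthfd2, a mitochondrial folate enzyme, had 1.64 (SE 0.41) and Eif4ebp1, a brake on translation, 1.49 (SE 0.32). Other members were spread from -0.30 (Stc2) to 1.15 (Xpot), transporters and synthesis enzymes alike, with 0.02 for the transporter Slc1a5, 0.60 for the transporter Slc7a1 and 0.45 for the proline synthesis enzyme Aldh18a1. Asns, asparagine synthetase, read 870.0, 1832 and 1011 against 1431, 1937 and 1367, a log2 fold change of 0.33 (SE 0.31), and Psat1, of serine synthesis, had -0.01 (SE 0.60), and 0.40 (SE 0.52) on a second probe set. Sesn2, a stress sensor for amino acids, had 0.49 (SE 0.36), and 0.92 (SE 0.27) on a second probe set. Vldlr, Slc7a11 and Nupr1 were below the filter, and over all 28 listed targets on the array, with no filter, the median was 0.27. With the replicate block, a variance trend and robust moderation, limma called 8 of the 22 higher and 0 lower, where it called 2.19% of all genes higher and 1.34% lower. These were the 6 above with Slc6a9 and Xpot. No other fit that was tried called any probe set at an adjusted p under 0.05.

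**Figure D4:**
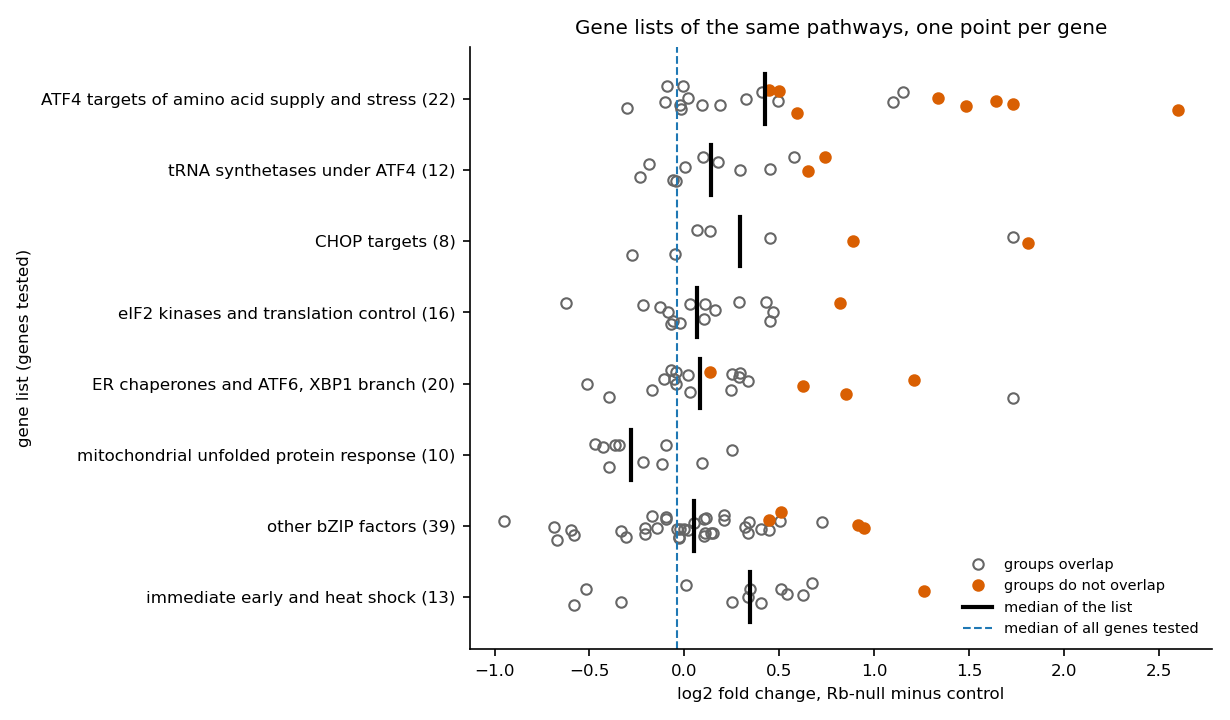
Log2 fold change (Rb-null minus control) of every tested gene of 8 lists, 1 point per gene, filled where the 2 groups do not overlap, with the median of each list and, dashed, that of all genes tested (-0.04). The ATF4 target list has its median at 0.43 with 8 filled points, and the mitochondrial unfolded protein response list at -0.28 with none.

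Known targets of CHOP differed among themselves. Of 8 tested, 0 passed limma's adjusted test, the median was 0.29, and 3 were higher at an unadjusted p under 0.05, where 2.43% of all genes were. With 1 array left out the median ran from 0.24 (without control replicate 1) to 0.60 (without control replicate 3). It was 0.47 without Rb-null replicate 1 and 0.45 without Rb-null replicate 2. With the block, trend and robust moderation limma called 3 higher, Bbc3, Dnajb9 and Ppp1r15a, where it called 2.19% of all genes higher. The pro-apoptotic genes Bbc3 and Bcl2l11 had 1.81 (SE 0.53) and 0.89 (SE 0.32), without overlap between groups, and 4 other Bcl2l11 probe sets had 0.14 to 0.97. Bbc3 read 103, 124 and 211 in controls and 294, 529 and 1016.5 in Rb-null. Dnajb9, a chaperone of the endoplasmic reticulum (ER), had 1.73 (SE 0.70) with overlapping groups and is on the ER chaperone list too. The phosphatase subunit Ppp1r15a (GADD34), which reverses eIF2 alpha phosphorylation, had 0.45 (SE 0.32), the ER oxidase Ero1a 0.07 (SE 0.42) and the death receptor Tnfrsf10b -0.28 (SE 0.26). Bbc3 is also a known target of p53.

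Upstream of ATF4, Eif2ak1 (HRI) read 1463, 2274 and 2469 in controls and 1774, 2656 and 2660.4 in Rb-null, a log2 fold change of 0.16 (SE 0.31). Its groups overlapped, though it was higher within every number. Eif2ak3, the ER stress kinase PERK, had 0.82 (SE 0.28) on a dim probe set that read 26.4 to 62.3 in controls and 68.7 to 114 in Rb-null, and -0.20 on a second, whose SE of 0.82 is too wide to tell the probe sets apart. Eif2ak4, the amino acid sensor GCN2, was below the filter. Ppp1r15b had 0.11 (SE 0.28), and 0.91 (SE 0.35) on a second probe set. Of the 16 kinases and translation factors tested, 0 passed limma's adjusted test and 9 were positive, with a median of 0.07. It ran from -0.02 (without control replicate 1) to 0.19 (without Rb-null replicate 1) with 1 array left out. With the block, trend and robust moderation limma called 1 of them, Ppp1r15a, higher, where it called 2.19% of all genes higher.

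The ER chaperone list, run by the ATF6 and XBP1 branches of the unfolded protein response, had a median of 0.08 over 20 genes, 12 of them positive and 0 past limma's adjusted test. Hspa5 (BiP), its most widely used marker, read 1501.5, 1892 and 1465 in controls and 2144, 2055 and 2111 in Rb-null, a log2 fold change of 0.30 (SE 0.25) with overlap on the normalized scale. Xbp1 had -0.17 (SE 0.50), with -0.35 to 0.38 on 3 other probe sets. Herpud1, which ATF4 also induces, had 1.21 (SE 0.46), and 1.59 (SE 0.33) on a second probe set. The list's median ran from -0.11 (without control replicate 1) to 0.29 (without control replicate 2) with 1 array left out. Limma called 3 of the 20 higher with the block, trend and robust moderation, Calr, Dnajb9 and Herpud1. In that fit it called 2.19% of all genes higher.

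Mitochondrial chaperones and proteases, the genes linked with Atf5, lay lower as values. The median log2 fold change was -0.28 over 10 genes, 8 of them negative and 0 past limma's adjusted test, with or without the block and trend. It was -0.14 without control replicate 2 and -0.16 without Rb-null replicate 3. The chaperonin Hspd1 had -0.37 (SE 0.45) and the protease Lonp1 -0.22 (SE 0.36). Hspa9 had 0.25 (SE 0.68), and 0.14, 0.34 and 0.75 on its other probe sets. Cytosolic tRNA synthetases, another set under ATF4, had a median of 0.14 over 12 genes, 8 positive and 0 past the adjusted test. Aars and Nars had 0.65 and 0.74 (SE 0.33 each) without overlap, with 0.71 and 0.23 on their second probe sets, and Gars 0.45 (SE 0.33) with overlap. That median ran from -0.07 (without control replicate 1) to 0.29 (without control replicate 2). With the block, trend and robust moderation Nars was called higher, where 2.19% of all genes were.

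The wider bZIP family had values on both sides of 0. Of 39 other factors tested, 0 passed limma's adjusted test, 22 were positive and 17 negative, and the median was 0.05. It ran from -0.01 (without Rb-null replicate 3) to 0.15 (without Rb-null replicate 2) with 1 array left out. At an unadjusted p under 0.05, 2 were higher, where 2.43% of all genes were. The same 2 were called higher with the block, trend and robust moderation, where 2.19% of all genes were. These 2 factors were Nfe2l2 (NRF2), the regulator of antioxidant genes, at 0.95 (SE 0.33) and the small Maf partner Mafg at 0.92 (SE 0.28). Cebpa had -0.10 (SE 0.31), Cebpd -0.60 (SE 0.77, and 0.26 on a second probe set), Jun 0.40 (SE 0.28, and -0.61 on a second) and Jdp2 -0.03 (SE 0.39). Fos read 1221, 376 and 19.9 in controls and 478, 278 and 24.6 in Rb-null, so its arrays differed more by replicate number than by group. The 13 immediate early and heat shock genes, which Atf3 often accompanies, had a median of 0.35, which was -0.44 without control replicate 3, -0.02 without Rb-null replicate 1, 0.57 without control replicate 1 and 0.64 without control replicate 2. Limma called 1 of them, the chaperone Dnajb1, higher with the block, trend and robust moderation, where it called 2.19% of all genes higher.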

How the data were processed

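Total RNA, taken up in Trizol and cleaned on QIAGEN columns per the labels, was biotin labelled. The authors deposited 1 linear intensity per probe set and array. The software and scaling behind it are not given in the sources used here. Of 45101 probe sets, 64 controls, 4 empty and 1 with a value beyond a 16-bit scanner were left out. Probe sets were named from the platform annotation (34941 with 1 symbol, 932 with several, 9159 with none). Groups and replicate numbers came from the sample titles.

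Values were taken as log2(value + 16), quantile normalized, filtered at the 40th percentile of the mean (27019 probe sets) and fitted with limma 3.58.1 in R 4.3.3, with Benjamini-Hochberg adjustment over all of them. A gene in a list is its probe set with the highest mean (13232 genes). The fit was tested on simulated data that lacked the differences between replicate numbers seen here, so nothing about these arrays is read from it. The exact permutation test of 3 against 3 arrays cannot go below p = 0.1, so it was not used. Members and lists were chosen with earlier results of these data known. Named genes were the members, a fixed set from the lists and the 5 genes most correlated with Ddit3, beside those said to be named later.

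Arrays of the same number deviated together from their group means (correlations 0.639, 0.621 and 0.667, against at most 0.0719 between numbers), so the numbers were taken as pairs and used as a block in an alternative. Their meanings are not given in the sources used here. Other alternatives covered scaling, offset, filter, 1 probe set per gene, array weights, arrays left out and, chosen after seeing the data, the granulocyte marker level as a covariate.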

Additional observations from a re-analysis of the deposited data

How the results depend on the processing

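Limma called 0 probe sets in 17 of 18 alternatives, among them the fit with the replicate block and all 6 fits with 1 array left out. The exception was the replicate block with a variance trend and robust moderation, which called 938 (605 higher, 2.24% of those tested). Among them were 6 of the 14 member probe sets tested, of Ddit3, Atf4, Cebpg and Trib3. The block alone changed no call. The bright Ddit3 probe set had a log2 fold change of 1.94 with an offset of 64 and 1.95 without both arrays numbered 3, and the brightest Cebpg probe set 1.18 with an offset of 64. With 1 array left out they ran from 2.03 to 2.25 and from 1.35 to 1.50. Of the 14 member probe sets tested, 12 kept their sign under every alternative that tested them, and Atf3 and Chac1 each kept it in 15 of 18. Medians of the eIF2, ER, tRNA synthetase, immediate early and wider bZIP lists changed sign under at least 1 alternative, and the cause was not tested. The number of arrays, differences between replicate numbers and dim signal limit Trib3, the dim Ddit3 probe set and Atf5.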
